A study of Mus musculus with 13 samples.

Results

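Single hypothalamic microglia were compared between mice given a high-fat diet (HFD) for 1 day and mice kept on control chow, in the plates of the series that hold both. The cells are the wells of plates 6 and 8 that the authors' table of wells places on control chow or on 1 day of HFD, kept where a well held at least 1500 transcripts. This left 316 of the 1617 cells that pass the same minimum in the whole series: 161 of 192 wells for 1d HFD (83.9%) and 155 of 192 wells for control (80.7%). The cells carry 12 replicate identifiers, 3 for each diet on each plate, and no identifier is on both plates. Transcripts were summed over the 19 to 33 cells of each identifier, so that each diet had 6 replicate sums; diets were compared over these sums with the plate as a term, and p-values measure the spread between identifiers, which are not stated to be single animals.

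All mice were male C57BL/6J, wild type, with an age tag of 9 weeks in the name of each of the 384 wells. The HFD held 60% fat and the control group ate standard chow ad libitum. Microglia were sorted as CD45-low, CD11b-positive single cells into 192-well plates and sequenced by CEL-Seq2, a method that tags the 3' end of each transcript with a molecular identifier (UMI). The sample descriptions speak of 3 days of HFD for all libraries, while the length used here, 1 day, is the one written for each well.

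Microglia are the resident macrophages of the brain. In the unchallenged brain they survey the tissue through purinergic and chemokine receptors such as P2ry12 and Cx3cr1, clear debris through complement, Fc receptors and lysosomes, and depend on Csf1r signalling for survival. In the hypothalamus they sit close to vessels that admit circulating nutrients, and dietary fat is known to reach them, so that genes of mitochondria, lipid handling and inflammation are followed here beside those of microglial identity.

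The cells carried the microglial signature on both diets. P2ry12 and Cx3cr1 UMIs were present in 155 of 155 control cells and in 161 of 161 1d HFD cells. Csf1r was seen in 99.4% and 100% of cells, Tmem119 in 95.5% and 100%, Gpr34 in 94.2% and 94.4%, and Sall1, a transcription factor of microglial identity, in 63.9% and 70.2%. Defining genes of other cells were nearly absent: Pf4 of border macrophages was at 0 in both groups, Mrc1 had 3 and 2 UMIs and Ccr2 of monocytes 2 and 2. Csf3r, Ighm and Slc1a3, which stand on the neutrophil, lymphocyte and astrocyte lists, were instead seen in many cells of both diets (Csf3r in 72.9% of control cells and 73.3% of 1d HFD cells, Ighm in 56.1% and 50.9%, Slc1a3 in 31.6% and 35.4%). With these 3 genes set aside, 8 of the 316 cells held at least 3 UMIs, unthinned, of another cell type's list.

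Over both plates the range of depth was similar. The median cell held 2355 transcripts in control (range 1516 to 3913) and 2395 in 1d HFD (1510 to 3974). Summed per replicate, the libraries held 44912 to 81602 transcripts in control and 51361 to 78617 in 1d HFD, and the 2 shallowest were control replicates M5 and M7 of plate 6. The share of transcripts from the mitochondrial genome was 2.42 to 3.92% in control and 2.76 to 3.65% in 1d HFD (exact permutation p = 0.76), and the share from ribosomal protein genes 2.22 to 2.56% and 2.21 to 2.62% (exact permutation p = 0.385).

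Further measures of the cells, 3 in all, were taken per replicate and compared by an exact permutation of diets within plates, which has 400 assignments and a smallest possible two-sided p of 0.005. The median transcripts per cell ran from 2018 through a median of 2288 to 2524 in the control replicates and from 2187 through 2389 to 2830 in 1d HFD. The replicates overlapped over both plates but not on plate 6, where every 1d HFD replicate (2187 to 2516) was deeper than every control one (2018 to 2159). The difference was 159 transcripts (exact permutation p = 0.145), 253 on plate 6 and 65.3 on plate 8, and ran from 83.2 without the 1d HFD replicate M14 to 207 without M12 (exact permutation p = 0.33 and 0.05). After every cell was thinned to 1500 transcripts, the median number of genes detected was 928 to 964 in control and 934.5 to 963 in 1d HFD, a difference of 1.08 genes (exact permutation p = 0.86); without thinning the difference was 73.2 genes (exact permutation p = 0.1).

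Heterogeneity between the cells of a replicate, measured as the mean of 1 minus the Pearson correlation between thinned cells over 1000 variable genes, was 0.389 to 0.425 in control (median 0.401) and 0.387 to 0.407 in 1d HFD (median 0.392). The 2 highest values belonged to the control replicates M5 and M7, the shallowest sums, and the other replicates overlapped. The difference was -0.0112, -0.0170 on plate 6 and -0.00543 on plate 8, with an exact permutation p of 0.055. Its call depended on the settings: p was 0.01 over 300 genes, 0.16 over 3000 genes, 0.005 without thinning, 0.055 and 0.01 in further random draws of the thinning, and 0.45 (difference -0.00453) without M5 and M7. Of the 12 fits without a single replicate, p was 0.02 without control M9, 0.015 without control M15 and 0.045 without 1d HFD M16, and 0.055 or more without each of the others. The plot of the measures of the cells shows the plate 6 control replicates at lower depth and higher heterogeneity than the plate 8 ones; the part of depth in the difference was not tested beyond the thinning.

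**Figure D1:**
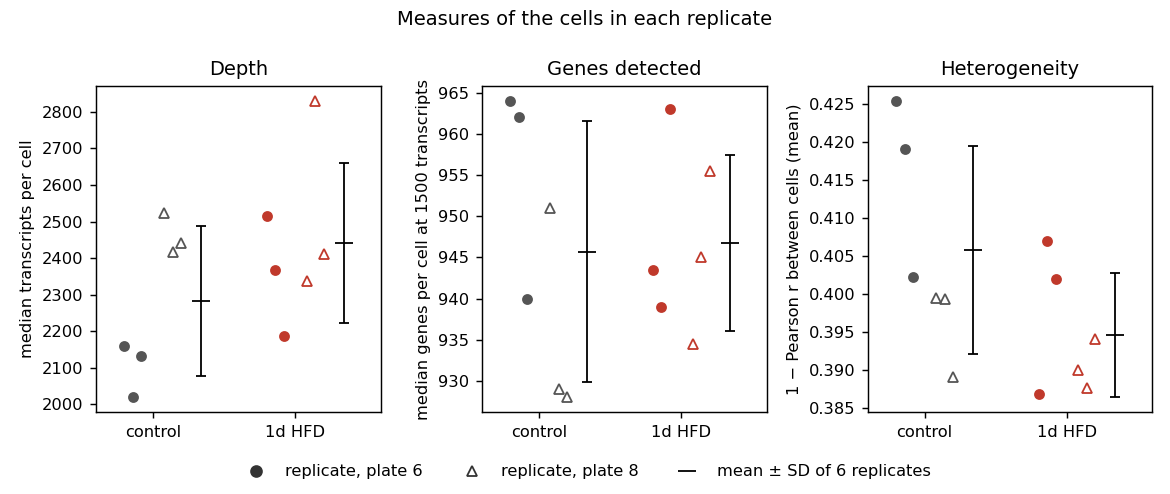
Median transcripts per cell, median genes per cell at 1500 transcripts, and heterogeneity between cells (mean of 1 minus Pearson r), one point per replicate, by diet and plate, with the mean and SD of the 6 replicates of each diet. The diets overlap in all 3 measures; the 2 highest heterogeneity values are control replicates of plate 6, at 0.425 and 0.419.

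No gene passed the test for a difference between 1d HFD and control. Of 1383 genes with enough counts, 0 were higher (0%) and 0 were lower (0%) at an adjusted p under 0.05 in edgeR's quasi-likelihood test, and the smallest adjusted p was 0.541. Without adjustment, 80 genes (5.78% of those tested) had a p under 0.05, of which 39 were higher (2.82%) and 41 lower (2.96%) in 1d HFD. DESeq2 likewise called 0 genes and had 49 at an unadjusted p under 0.05, and limma voom 0 and 89. Without the shallow control replicates M5 and M7, 0 of 1736 genes were called and 106 had an unadjusted p under 0.05. Without the 8 cells that held markers of other types, 0 of 1278 were called and 79 had one.

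The intervals say how large a difference could have gone unseen. They and the SEs given below were computed from each gene's log2 fold change and the F statistic of its test, and are approximate. The log2 fold change (1d HFD over control) ranged from -1.15 to 0.91 over the 1383 genes with a median of 0.00, and 2 genes lay beyond 2-fold, Prkab1 (-1.15) and Morf4l1 (-1.08). The 95% interval lay wholly within a 2-fold difference for 1209 genes (87.4%) and within a 1.5-fold difference for 483 (34.9%), with a median distance of 0.50 (log2) from the estimate to the upper bound. Genes below the filter, which include most metabolic enzymes and cytokines, were too sparse at this depth for such bounds.

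**Figure D2:**
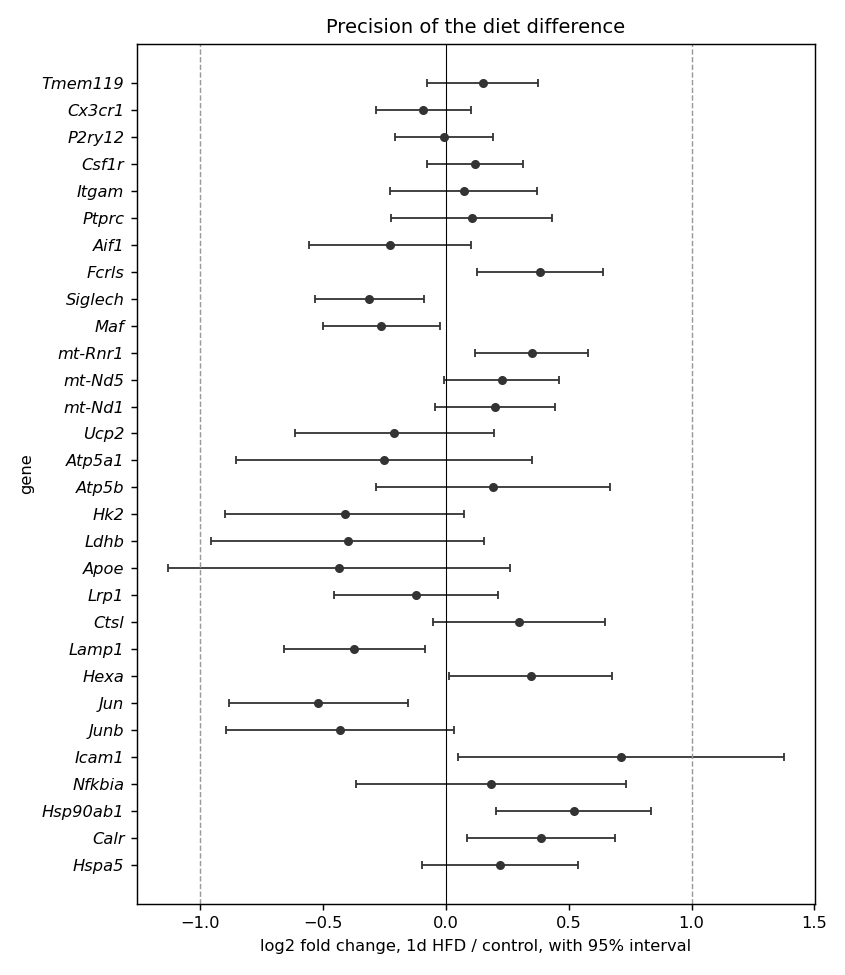
Log2 fold change of 1d HFD over control with its 95% interval for 30 named genes of microglial identity, mitochondria, metabolism, lysosomes, inflammation and chaperones; dashed lines mark 2-fold. Intervals of Tmem119, Cx3cr1, P2ry12 and Csf1r stay between -0.29 and 0.37, while those of Apoe and Icam1 pass 2-fold.

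The diet difference on plate 6 did not go with that on plate 8. Log2 fold changes fitted on each plate alone had a Pearson r of 0.05 and a Spearman rho of 0.03 across the 1383 genes, which are not independent replicates, and 709 genes (51.3%) had the same direction on both. Of 72 genes at an unadjusted p under 0.05 on plate 6, 41 had the same direction on plate 8, and of 82 on plate 8, 39 had the same direction on plate 6. Past that limit on both plates were 5 genes, of which Mgat1, Morf4l1 and Tmed5 were lower on each, while Ctsz and Rpl10, named after their values were seen, were higher on plate 6 (0.49 and 0.55) and lower on plate 8 (-0.37 and -0.52). Fitted alone, plate 6 gave 0 calls and plate 8 gave 1, Apoe. In a fit with a term for diet by plate, added after seeing these values, 0 of 1383 genes differed between the plates at an adjusted p under 0.05 and 70 (5.06%) did at an unadjusted p under 0.05.

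**Figure D3:**
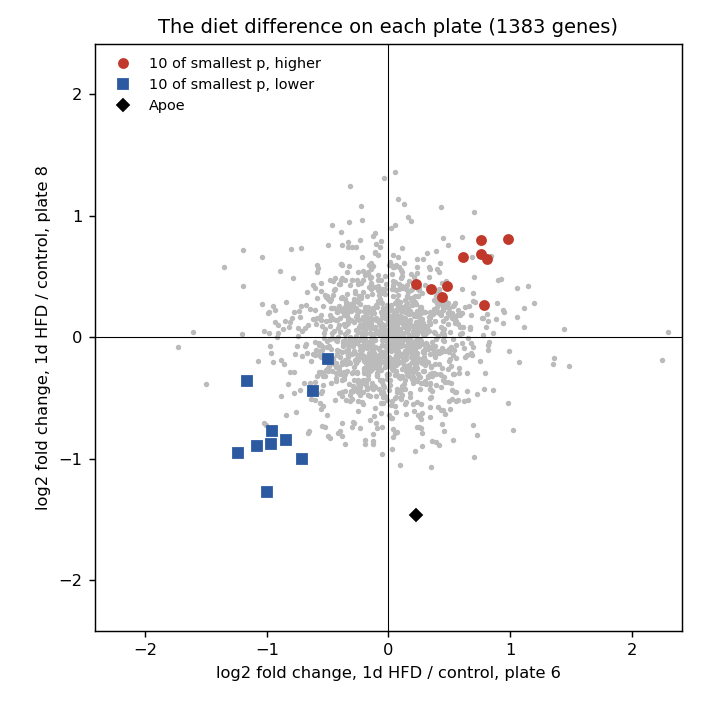
Log2 fold change of 1d HFD over control on plate 6 (horizontal) and plate 8 (vertical), one point per tested gene; red and blue mark the 10 genes of smallest p in each direction over both plates, black marks Apoe. The cloud of 1383 genes is round (Pearson r 0.05), and Apoe stands at 0.23 on plate 6 and -1.46 on plate 8.

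Levels are given as CPM, the transcripts of a gene relative to the TMM-scaled total of the replicate. The genes nearest to a call are described next, as the 10 of smallest p in each direction; none passed, with adjusted p from 0.541 to 0.665. Being chosen by p over both plates, all 20 had the same direction on each plate. Groups of replicates that did not overlap at all were found for 4 genes higher in 1d HFD (0.289% of 1383) and 1 gene lower (0.0723%), and 3 of these 5 are among the 20: Zfr, Setd2 and Tmed5. The others, named after their values were seen, are Pros1, the phagocytic bridging protein S (0.48, with 154 to 271 CPM in control and 288 to 398 in 1d HFD), and Ctsc, a cathepsin (0.32, with 322 to 528 and 536 to 663 CPM). Every HFD replicate lay above its plate's control mean for 41 genes (2.96%) and none did for 67 (4.84%).

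The 10 with higher values in 1d HFD are given first. Hsp90ab1 (chr17:45567775-45573271, minus strand), a constitutive cytosolic chaperone of the HSP90 family, had 472 to 829 CPM in control (median 605) and 663 to 1361 in 1d HFD (median 841). The groups overlapped, 5 of 6 HFD replicates were above their plate's control mean, and the log2 fold change was 0.52 ± 0.16 (SE), with 0.79 on plate 6 and 0.27 on plate 8. The share of cells with a Hsp90ab1 UMI was 68.4% in control and 83.2% in 1d HFD. Shares of cells with a UMI of a single gene are from unthinned cells throughout. With every cell thinned to 1500 transcripts the log2 fold change of Hsp90ab1 was 0.41, and in cells of at least 2500 transcripts 0.42. Calr (chr8:84841850-84846934, minus strand), the calcium-binding chaperone calreticulin of the endoplasmic reticulum, had 530 to 829 CPM in control (median 633) and 677 to 1119 in 1d HFD (median 914). Its groups overlapped although all 6 HFD replicates were above their plate's control mean, and the log2 fold change was 0.39 ± 0.15 (SE).

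Zfr, an RNA-binding zinc finger protein, was at 0 in 1 control replicate and reached 148 CPM in another, against 156 to 209 CPM in 1d HFD, so that the groups did not overlap (log2 fold change 0.89 ± 0.33 SE). Setd2, a histone methyltransferase that acts on transcribed genes, had 66.0 to 184 CPM in control and 189 to 295 in 1d HFD, again without overlap (0.73 ± 0.27 SE). Ccnt2, a cyclin of the transcription elongation factor P-TEFb, had a log2 fold change of 0.74, and Larp4b, which binds mRNA and supports its translation, 0.79. Aup1, a protein of lipid droplets and of degradation from the endoplasmic reticulum, had 0.65 (0.32 with cells thinned to 1500 transcripts and 0.98 in cells of at least 2500). Its UMIs were in 35.5% of control cells and 51.6% of 1d HFD cells, unthinned. In each of Ccnt2, Larp4b and Aup1 the groups overlapped and 5 of 6 HFD replicates were above their plate's control mean.

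Fcrls and Tmem176b, both expressed by macrophages, were on the same side. Fcrls (chr3:87250758-87263738, minus strand), a receptor-like marker of microglia, had 903 to 1258 CPM in control (median 1013) and 1126 to 1787 in 1d HFD (median 1353), with a log2 fold change of 0.38 ± 0.13 (SE). All 6 HFD replicates of Fcrls lay above their plate's control mean, and the groups overlapped between 1126 and 1258 CPM. Tmem176b, a cation channel of intracellular vesicles, had 0.46, and 0.29 in cells of at least 2500 transcripts.

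The 10 with lower values in 1d HFD follow. Tmed5 (chr5:108106366-108132620, minus strand), a cargo receptor between the endoplasmic reticulum and the Golgi, had the smallest p of all 1383 genes (0.00042). Its level was 256 to 496 CPM in control (median 326) and 114 to 233 in 1d HFD (median 199), and every HFD replicate was below every control one. The log2 fold change of Tmed5 was -0.84 ± 0.23 (SE; 95% interval -1.30 to -0.39), and its adjusted p of 0.541 did not pass. With every cell thinned to 1500 transcripts Tmed5 had -0.48, and in cells of at least 2500 transcripts -1.33. Mgat1, which starts the formation of complex N-glycans in the Golgi, had -0.91, with overlap between 120 and 192 CPM.

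Prkab1 (chr5:116013586-116024508, minus strand) encodes the beta-1 regulatory subunit of AMPK, the kinase that senses cellular energy. It had the largest negative estimate of the genes tested, -1.15 ± 0.36 (SE; 95% interval -1.87 to -0.44), at 126 to 285 CPM in control (median 166) and 18.9 to 160 in 1d HFD (median 70.8). All 6 HFD replicates were below their plate's control mean, but the highest HFD replicate of Prkab1 overlapped the control range. The share of cells with a UMI was 31.6% in control and 18% in 1d HFD, so the estimate rests on low counts. Rap1a, a small GTPase of integrin signalling, had -0.83.

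Jun (chr4:95049034-95052222, minus strand), a subunit of the AP-1 transcription factor and an immediate early gene, had 425 to 875 CPM in control (median 613) and 369 to 551 in 1d HFD (median 416). The 3 highest values, from 767 to 875 CPM, were control replicates, and the other 3 control replicates lay within the HFD range; the log2 fold change was -0.52 ± 0.18 (SE). In cells of at least 2500 transcripts it was 0.03. C3ar1, the receptor of complement fragment C3a, had -0.71, with -1.16 on plate 6 and -0.36 on plate 8. Morf4l1 (-1.08) and Whsc1l1 (-0.98) act on chromatin, and Sf3b2 (-0.85) is part of the splicing factor SF3b. Gm42418 (-0.32) is a predicted gene that lies over a ribosomal RNA repeat, so its reads cannot be assigned with certainty.

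**Figure D4:**
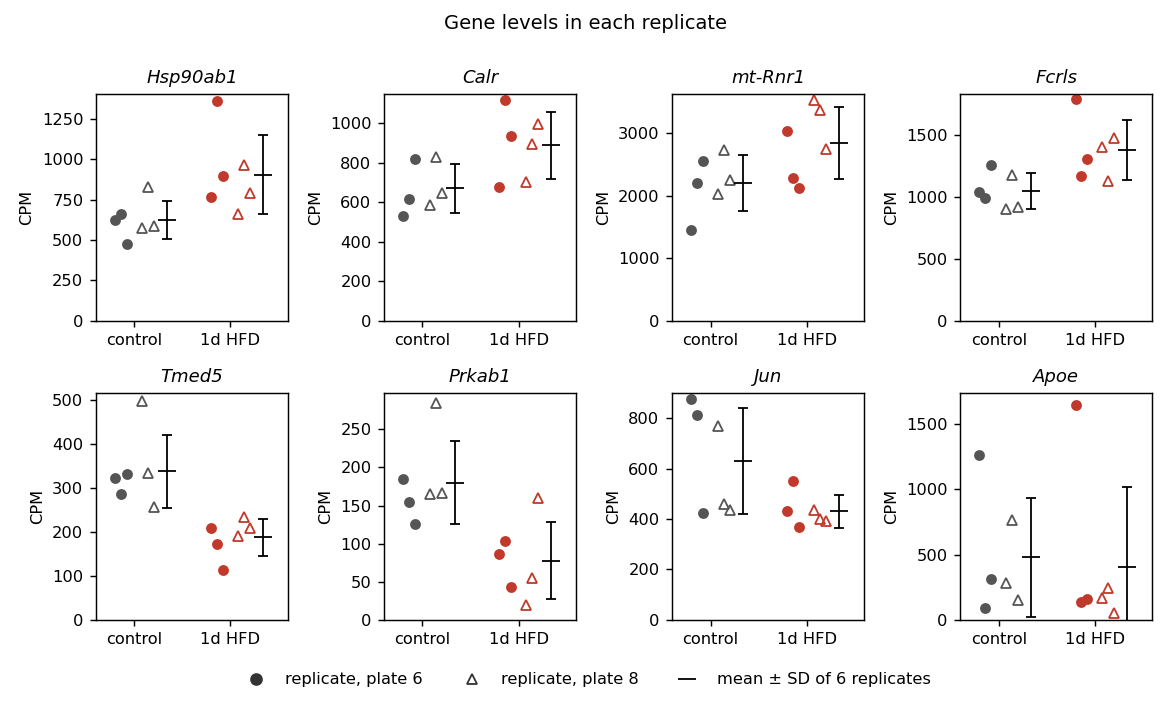
Levels in CPM (TMM-scaled) of 8 genes, one point per replicate, by diet and plate, with the mean and SD of the 6 replicates of each diet. The groups of Tmed5 do not overlap, those of the other 7 genes do, and 1 replicate of 1d HFD holds 1648 CPM of Apoe against 247 or less in the other 5.

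Gene lists were described by their tested members at an unadjusted p under 0.05, beside 5.78% of all genes (0 where no such count is given), and by their median log2 fold change, beside 0.00 over all genes; 49.7% of all genes had a positive value. Every list had 0 members called. Without single replicates, 27 of 29 list medians moved by over 1.5 times and 17 changed sign. Of the 93 genes chosen for naming, 45 moved that far and 5 changed sign. With thinned cells, 23 of the 62 named genes still tested moved that far and 3 changed sign. In cells of at least 2500 transcripts these counts were 35 and 3 of 61. Of the 20 genes of smallest p, a choice that favours stable estimates, 0 moved that far without single replicates. With thinned cells 2 of the 11 still tested did, and in cells of at least 2500 transcripts 4 of 12 did and 1 changed sign. The 28 homeostatic microglial genes were all tested and had a median of 0.00, with 13 positive and 15 negative and every 95% interval within 2-fold. P2ry12 had -0.01 (95% interval -0.21 to 0.19), Cx3cr1, the fractalkine receptor, -0.09 (-0.29 to 0.10), and Tmem119 0.15 (-0.08 to 0.37). The sign of P2ry12 turned with several settings, and that of Itgam, Ptprc, Csf1r, Aif1, Nfkbia, Canx, Glud1, Eif1, Eif5b, Psmd1, Tubb5, Gm26917, Bhlhe41, Xpr1 and Ctsc with at least 1. Siglech, a sialic acid-binding lectin, had -0.31 with all 6 HFD replicates below their plate's control mean, and Maf, a macrophage transcription factor, -0.26; both had an unadjusted p under 0.05, as did Fcrls and Olfml3 (0.24), the last of which was named after its value was seen.

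The 14 genes of the sort and of the lineage, all tested, had a median of 0.09, with 10 positive and 4 negative and 0 at an unadjusted p under 0.05. Itgam, which encodes CD11b, had 0.07 and Ptprc, which encodes CD45, 0.10. Csf1r had 0.12 (95% interval -0.08 to 0.31) and Aif1, the gene of the microglial marker IBA1, -0.23. Itga6, an integrin, had 0.31, and Fcgr3, an activating Fc receptor, 0.23. Among 17 tested genes of Fc receptor, Trem2 and ITAM signalling the median was 0.09 and 0 had an unadjusted p under 0.05, with the kinase Lyn at 0.26. The 9 tested genes of TGF-beta signalling, which maintains microglial identity, had a median of 0.11, with the receptor Tgfbr1 at 0.21, the activator Nrros at 0.37 and the ligand Tgfb1 at -0.36. Without single replicates that median ran from -0.0012 (without M11) to 0.19 (without M15), Nrros went down to 0.13 (without M6) and 0.16 (without M12), and Tgfb1 ran from -0.60 (without M10) to -0.19 (without M15).

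Complement and lysosomal genes, abundant in microglia, had values on both sides of 0. The 5 tested complement genes had a median of 0.03 and ran from -0.71 to 0.08; C3ar1, described above, was the 1 at an unadjusted p under 0.05. The 24 tested lysosomal genes had a median of 0.04 and ran from -0.57 to 0.34, with 1 higher and 2 lower at an unadjusted p under 0.05. Lamp1, a lysosomal membrane protein, had 752 to 1015 CPM in control and 578 to 783 in 1d HFD, a log2 fold change of -0.37 ± 0.14 (SE). Atp6ap1, a subunit of the proton pump, had -0.57, and Hexa, the alpha chain of beta-hexosaminidase, 0.34, its lowest control replicate standing apart. Ctsl, a cathepsin, had 0.30. The 10 tested genes raised in disease-associated microglia had a median of 0.00.

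Transcripts of the mitochondrial genome, the mitochondrial readout with the most counts, had a median of 0.12 over 8 tested genes, 7 of them positive and 1, mt-Rnr1, at an unadjusted p under 0.05; without single replicates it ran from 0.046 (without M6) to 0.19 (without M13), with 0.058 without M7 and 0.18 without M9. mt-Rnr1, the small ribosomal RNA of mitochondria (chrMT:70-1024, plus strand), had 1451 to 2722 CPM in control (median 2225) and 2114 to 3522 in 1d HFD (median 2890). All 6 HFD replicates of mt-Rnr1 were above their plate's control mean, the groups overlapped, and the log2 fold change was 0.35 ± 0.12 (SE), with 0.23 on plate 6 and 0.44 on plate 8. The complex I subunits mt-Nd5 and mt-Nd1 had 0.23 and 0.20, with 95% intervals that include 0.

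Nuclear genes of the respiratory chain were mostly below the filter. Of complexes I, II and III, 0 of 37, 0 of 8 and 0 of 10 members were tested. Summed over a list, levels are CPM without TMM factors. The summed level of complex I was 1705 to 2172 CPM in control and 1598 to 2253 in 1d HFD, that of complex II 282 to 461 and 216 to 427, and that of complex III 445 to 746 and 448 to 754; all 3 overlapped. Sdha, the catalytic subunit of succinate dehydrogenase, was seen in 20.6% of control cells and 16.8% of 1d HFD cells, Sdhb in 12.9% and 14.9%, Sdhc in 14.2% and 9.9%, and Sdhd in 11% and 9.9%. Dnm1l, which encodes the fission GTPase DRP1, was seen in 10.3% and 11.2%. Atp5a1 and Atp5b, of the ATP synthase, had log2 fold changes of -0.25 and 0.19, and Slc25a5, the ADP/ATP carrier, -0.16. Complex IV had 3 tested members, between 0.04 and 0.07, and mitochondrial dynamics and transport 3, between -0.21 and 0.06. Ucp2, a carrier of the inner mitochondrial membrane, had 253 to 440 CPM in control and 227 to 431 in 1d HFD (-0.21, 95% interval -0.61 to 0.19).

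Genes of fuel use were equally sparse. Of the 34 genes of the fatty acid oxidation list 1 was tested, Ucp2, the inner-membrane carrier described above. The enzymes of that list were not tested. Cpt1a, which admits long-chain fatty acids to mitochondria, had 8 UMIs in control and 10 in 1d HFD. The summed fatty acid oxidation level was 1048 to 1519 CPM in control and 1131 to 1431 in 1d HFD. Glycolysis had 5 of 23 members tested with a median of -0.06 (0.094 without M13); Hk2, a hexokinase, had -0.41 and Ldhb, a lactate dehydrogenase chain, -0.40, each with 0 within its 95% interval; Hk2 had -0.22 without M5 and -0.26 without M11, and Ldhb -0.24 without M16. The tricarboxylic acid cycle list had 1 of 31 tested, the glutamate dehydrogenase Glud1 at 0.09, so the enzymes of the cycle itself were not tested. In insulin and nutrient signalling, 9 tested genes, 6 positive and 3 negative, had a median of 0.05 (-0.061 without M15). Prkab1 was the 1 at an unadjusted p under 0.05, and the other negative ones were Rptor, the mTORC1 scaffold, at -0.54 and Igf1r at -0.38.

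Lipid handling had 5 of 33 members tested, with a median of -0.11. Lrp1, a lipoprotein receptor, had -0.12. Apoe, the apolipoprotein that carries lipid between brain cells, had most of its UMIs in a single cell in some replicates but not in others. The top cell held from 25% (M8 and M16 of 1d HFD) to 91.9% (control M13) of a replicate's Apoe UMIs. Its replicates held 88.1 to 1267 CPM in control (median 300.2) and 49.2 to 1648 in 1d HFD (median 163), with M5 (1267) and M13 (767) high in control and M6 (1648) in 1d HFD. On plate 6 a single cell of the 1d HFD replicate M6 held 78 of that replicate's 94 Apoe UMIs, and 1 cell of control M5 held 50 of 55. On plate 8, 1 cell of control M13 held 57 of 62. Unthinned cells with any Apoe UMI made up 14.8% of control and 21.1% of 1d HFD. Over both plates the log2 fold change of Apoe was -0.44 ± 0.35 (SE, adjusted p = 0.903). On plate 8 alone it was -1.46 (adjusted p = 0.0326), and without M6 it was -1.61 (adjusted p = 0.00345); on plate 6 alone it was 0.23. The difference between the plates had an adjusted p of 0.939.

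Inflammatory genes were at low levels on both diets. Il1b had 0 UMIs in 155 control and 161 1d HFD cells, so that shares of up to 1.94% and 1.86% remain possible for cells with a UMI. Tnf had 1 UMI in each group, and Il6 had 3 and 6. Ccl4 had 60 UMIs in 8 control cells, 46 of them in 1 cell, and 22 UMIs in 4 1d HFD cells. With every cell thinned to 1500 transcripts, at least 3 UMIs of the chemokine and cytokine list were held by 11% of control cells and 9.94% of 1d HFD cells (20.6% and 26.7% unthinned), and of the interferon response list, of which 0 genes were tested, by 8.39% and 8.70% (16.8% and 15.5% unthinned). Of the list's 2 tested members, Ccl9 had 0.48 (0.20 without M9 and 0.79 without M5) and Tgfb1 is given above.

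Icam1, an adhesion molecule induced through NF-kB, had 69.1 to 166 CPM in control and 114 to 278 in 1d HFD. All 6 HFD replicates of Icam1 were above their plate's control mean, the groups overlapped, and the log2 fold change was 0.71 ± 0.33 (SE), with 1.06 on plate 6 and 0.41 on plate 8. It was the 1 of 4 tested genes of the NF-kB list at an unadjusted p under 0.05, and the median of that list was 0.14, with the inhibitor Nfkbia at 0.18. MHC class I and its peptide loading had 7 tested members, of which 1, Calr, was higher at an unadjusted p under 0.05, and a median of -0.14 (0.012 without M16), with the chaperones Tapbp at -0.27 and Canx at 0.21. H2-DMa, which loads MHC class II, had 0.33 (0.12 without M12), and H2-Aa, a class II chain, had 0 UMIs in both groups.

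Immediate early genes had mostly negative values in 1d HFD without a call: 7 of 8 tested members were negative, with a median of -0.19, a range of -0.52 to 0.13, and 1, Jun, at an unadjusted p under 0.05. Without single replicates the median ran from -0.25 (without M12) to -0.064 (without M8), and it was -0.10 without M10, -0.12 without M9 and -0.12 without M7. Junb, its relative, had 241 to 421 CPM in control and 155 to 284 in 1d HFD (-0.43, 95% interval -0.89 to 0.03), and Rhob had -0.20. The summed level of the list was 2532 to 3240 CPM in control and 2071 to 2962 in 1d HFD, so the groups overlapped.

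Chaperones had mostly positive values, again without a call. Of 15 tested, 12 were positive with a median of 0.22, 2 higher (Hsp90ab1 and Calr) and 1 lower at an unadjusted p under 0.05. The lower one, Cct8, a subunit of the TRiC folding complex, had -0.65. The unfolded protein response, which overlaps this list, had 5 of 7 positive and a median of 0.22, the value of the same gene as the chaperone median. Manf, a secreted stress protein, had 0.56, Edem1, of the degradation of misfolded glycoproteins, 0.37, and Hspa5, the main chaperone of the endoplasmic reticulum, 0.22. Without single replicates the chaperone median ran from 0.13 (without M8) to 0.37 (without M13) and was 0.34 without M12, and that of the unfolded protein response ran from 0.14 (without M14) to 0.36 (without M15) and was 0.34 without M12. On plate 8 alone Manf had 0.07 and Hspa5 0.03. Hsp90ab1, Calr, Cct8, Manf, Edem1 and Hspa5 all had lower estimates on plate 8 than on plate 6, though no gene passed for that difference. The summed chaperone level was 5977 to 8271 CPM in control and 6345 to 9520 in 1d HFD, again with overlap.

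The 69 tested ribosomal protein genes had a median of 0.02, with 37 positive and 32 negative. Rpl21 had -0.47 and Rpl23 0.41, each at an unadjusted p under 0.05, and Rpl23a 0.34; reads of ribosomal protein genes can be shared with processed copies. Translation factors had 16 tested members and a median of 0.03: Eif1 had -0.17, Eif5b 0.42 and the helicase Eif4a1 0.31. Of the proteasome 5 genes were tested with a median of -0.03, and Psmd1 had -0.39.

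Splicing factors had 35 tested members and a median of -0.01, with 2 higher and 4 lower at an unadjusted p under 0.05. Sf3b2 is described above; Hnrnpr, a binder of pre-mRNA, had -0.88 (-1.50 on plate 6 and -0.38 on plate 8), and Rbm25 had -0.34. The others past that limit, named after their values were seen, were U2af2 (-0.62), Srsf9 (0.75) and Hnrnpm (0.59). Among the 4 tested long RNAs of the nucleus the median was -0.27, with 2 lower at an unadjusted p under 0.05, Malat1 and Gm42418; the reads of Gm42418 are uncertain, and the other 3 ran from -0.48 to 0.0082. Malat1, a long non-coding RNA of nuclear speckles, had 24104 to 30378 CPM in control (median 27656) and 20854 to 24784 in 1d HFD (median 24211). The highest HFD replicate of Malat1 was above the lowest control one, all 6 HFD replicates were below their plate's control mean, and the log2 fold change was -0.22 ± 0.10 (SE), with -0.34 on plate 6 and -0.12 on plate 8. Neat1, of paraspeckles, had -0.48. The 4 predicted genes of satellite-like or repeat sequence had a median of -0.01, with Gm26917 at 0.60 and 1, again Gm42418, at an unadjusted p under 0.05.

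The remaining functional lists had 0 members at an unadjusted p under 0.05. The glucocorticoid and fasting response had a median of 0.08 over 5 tested genes, with the kinase Sgk1 at 0.34. Actin and motility had -0.03 over 23, with the Arp2/3 subunits Arpc5 at -0.50 and Arpc4 at -0.33 and its activator Wasf2 at -0.27. Antioxidant and iron genes had -0.15 over 4, and endosomal Rab GTPases 0.30 over 3, with Rab14 at 0.30. Of the circadian clock 1 of 19 genes was tested, the repressor Bhlhe41 at -0.04. For proliferation 1 gene was tested, the tubulin Tubb5 at 0.22, and at least 3 UMIs of that list were held by 3.23% of control and 4.97% of 1d HFD cells thinned to 1500 transcripts (9.68% and 11.2% unthinned). Ighm, which encodes the immunoglobulin mu chain and is the tested lymphocyte gene, had 286 to 752 CPM in control and 241 to 434 in 1d HFD (-0.54 ± 0.20 SE, with -0.30 on plate 6 and -0.73 on plate 8) and an unadjusted p under 0.05; of the B cell genes of that list Cd79b had 8 and 10 UMIs in all and Ms4a1 3 and 0, and their part in the difference was not tested. Xpr1, a phosphate exporter, had -0.19, and the RNA helicase Ddx3x -0.18.

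**Figure D5:**
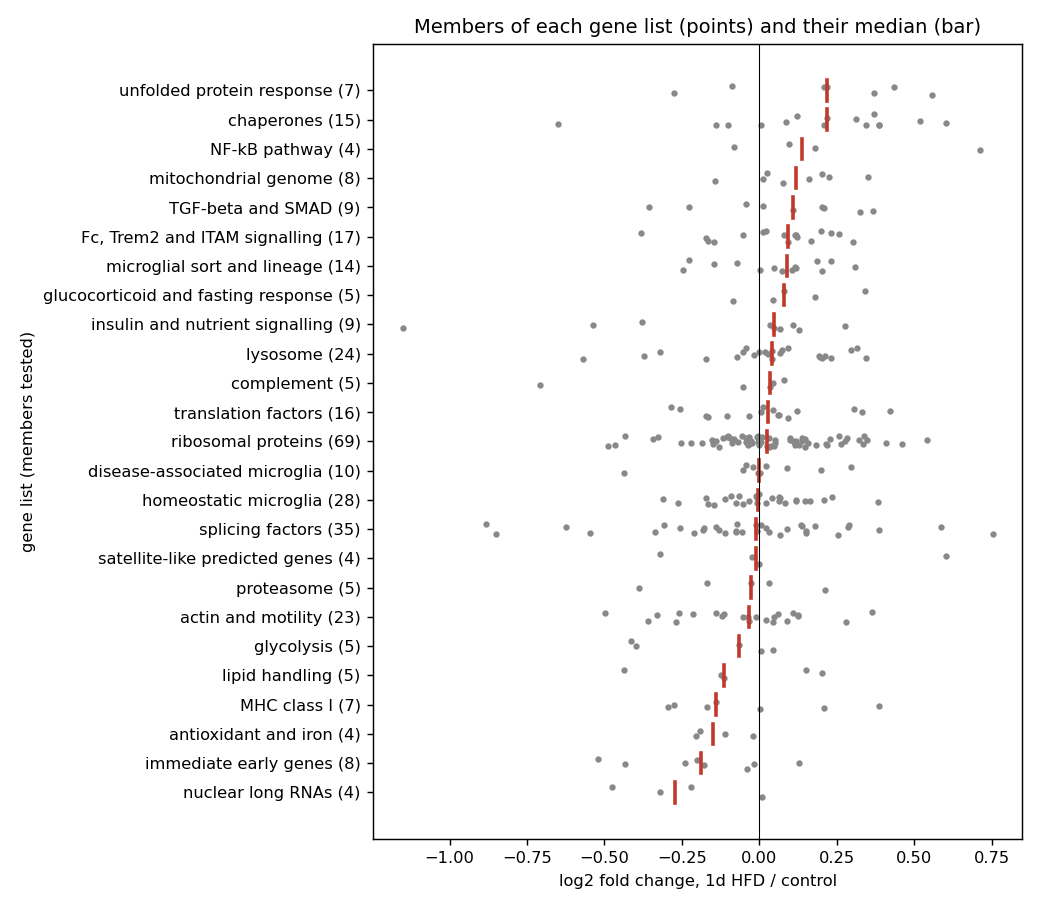
Log2 fold change of 1d HFD over control for the tested members (points) and their median (bar) of 25 gene lists with at least 4 tested members; the number tested is in brackets. Medians run from -0.27 for nuclear long RNAs (1 of 4 is Gm42418) to 0.22 for chaperones and the unfolded protein response, within the spread of the members. The chaperone and unfolded protein response lists overlap, and the same gene is the median of each.

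Whether 1 day differed from 3 days of HFD was tested in a single fit over all 13 plates, with 6 replicate sums for each length. The 3-day cells are on other plates (4, 5 and 13), so the contrast runs through the control sums of each plate. At an adjusted p under 0.05, 0 of 3189 genes differed (0%), with the smallest adjusted p at 0.446, and 148 genes (4.64%) had an unadjusted p under 0.05; DESeq2 gave 0 and 155. Siglech, which shares that smallest adjusted p, had -0.30 at 1 day and 0.36 at 3 days in that fit, a difference of -0.66 (adjusted p = 0.446). Morf4l1 had -1.07 and 0.30, Mgat1 -0.90 and 0.26, and Whsc1l1 -0.97 and 0.38, each with an adjusted p of 0.670 for the difference. Prkab1 had -1.14 at 1 day and 0.12 at 3 days in that fit, each against control, a difference of -1.26 (adjusted p = 0.800). For mt-Rnr1 the values were 0.37 and -0.25 (difference 0.62, adjusted p = 0.992). Hsp90ab1 had 0.54 and 0.34, Calr 0.40 and 0.59, Fcrls 0.40 and 0.14, and Jun -0.51 and -0.21. Apart from Siglech, the genes named for this contrast are among the 20 of smallest p at 1 day. That choice favours large 1-day values and can widen their differences from 3 days. The control sums of the 1-day and 3-day contrasts are on different plates, and both contrasts share the fit's estimate of the spread.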

How the data were processed

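The authors deposited an estimated count of transcripts per gene and well for each plate, made from UMI numbers. According to the methods and labels, reads were mapped with STAR to mm10 (GRCm38) and counted with featureCounts within snakePipes, and UMI numbers were corrected for repeated tags; no batch correction is in the deposited values, 100% of which gave whole UMI numbers within 0.001 on plates 6 and 8. Wells with at least 1500 transcripts over the 17280 genes of the authors' filtered table were kept, and 688 columns of that table, of cells not compared here, were left unused. Estimated counts were summed per replicate identifier and plate and rounded.

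edgeR 4.0.16 (R 4.3.3; TMM, filterByExpr with a minimum count of 10, quasi-likelihood test, two-sided, plate as a term) adjusted after Benjamini and Hochberg and called at 0.05, was the test, checked on simulated data; DESeq2 1.42.0 and limma 3.58.1 were alternatives. Measures per cell were compared by exact permutation within plates. Named genes are the 10 of smallest p in each direction, genes of interest to the study, and up to 3 tested members of smallest p per list; others are marked in the text. Some genes that the rule names are not reported here. Members and gene lists were chosen with earlier results of these data known. Coordinates are those of GENCODE M21 (GRCm38). Limits for a count of 0 take 3 counts, and cover counting error only.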

Additional observations from a re-analysis of the deposited data

Results flagged for a closer look

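In 11 of 192 groups of 6 replicates, taken over the named genes and the measures of the cells, 1 replicate stood apart from the other 5 (Dixon's ratio above its 95% critical value), where chance alone gives about 1 in 20. Apoe held 1648 CPM in 1 replicate of 1d HFD, against 247 CPM in the next. High values in 1 control replicate were found for Tmed5 (496 CPM, next 334), Prkab1 (285, next 184), Junb (421, next 299), H2-DMa (207, next 154) and Wasf2 (834, next 588). In 1d HFD, 1 replicate was high for Jun (551 CPM, next 436) and for H2-DMa (322, next 191). Low values stood apart for Ccnt2 in 1d HFD (123 CPM, next 241), Neat1 in 1d HFD (17.2, next 142) and Hexa in control (361, next 519).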

How the results depend on the processing

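The count of 0 genes called at 1 day held under 28 of 30 alternatives; plate 8 alone gave 1, and leaving out single replicates gave 0 to 1, in each case Apoe. Counts at an unadjusted p under 0.05 ran from 40 of 703 genes, without all 116 cells with markers of other types, to 534 of 15578 genes with no filter. The contrast with 3 days gave 0 calls under both alternatives. Heterogeneity passed 0.05 without thinning (-0.0188), over 300 genes (-0.0133) and in a further draw of the thinning (-0.0147), and ran from -0.0146 to -0.00829 without single replicates, passing in 3 of 12 (without control M9 or M15 or 1d HFD M16); the cause was not tested. Genes detected per cell ran from -2.75 to 4.83 without single replicates; in unthinned cells 1d HFD had 73.2 genes more (exact permutation p = 0.1). List medians moved beyond the replicate spread only without single replicates, for lipid handling (-0.10 to 0.041), ATP synthase (-0.18 to 0.16) and Fc, Trem2 and ITAM signalling (-0.0097 to 0.13).

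Estimates that turned sign did so as follows; the cause was not tested. On plate 6 alone: P2ry12 0.046, Aif1 0.0035, Eif1 0.011, Apoe 0.23, Eif5b -0.067, Tubb5 -0.17, Gm26917 -0.040 and Bhlhe41 0.31. On plate 8 alone: Itgam -0.037, Csf1r -0.015, Xpr1 0.15, Nfkbia -0.065, Canx -0.30, Glud1 -0.064 and Psmd1 0.0034. Cells of at least 2500 transcripts gave Jun 0.028, P2ry12 0.013 and Itgam -0.15, those of at least 1000 P2ry12 0.017, and thinned cells Ptprc -0.010, Eif1 0.050 and Apoe 0.059. Without cells with markers of other types, P2ry12 had 0.029, Itgam -0.13, Canx -0.059 and Ctsc -0.023. Without M5 and M7, Canx had -0.12 and Glud1 -0.084. P2ry12 had 0.0016 with library sizes alone and 0.011 in the fit over all plates, Glud1 -0.040 with limma voom, and Bhlhe41 0.048 without the cells with most Apoe. Without single replicates the ranges that crossed 0 were -0.041 to 0.032 for P2ry12, -0.019 to 0.17 for Itgam, -1.61 to 0.012 for Apoe, -0.21 to 0.29 for Glud1 and -0.21 to 0.12 for Bhlhe41.

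No paired analysis was possible because each replicate identifier is on 1 plate and has 1 diet; sums per identifier over both plates were not run for the same reason. Alternatives without M5 and M7, with reduced marker lists, other thinning draws and without the cells with most Apoe, and the diet by plate term, were chosen after seeing the data. Depth limits single genes below the filter.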
